A study of Mus musculus with 12 samples.

Results

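10 genes of transcription factors that direct or maintain the astrocyte fate were followed in ribosome-bound RNA of mouse cortical astrocytes with and without Fmr1. They are Sox9 and Sox2 of the SOX family, the nuclear factor I genes Nfia, Nfib and Nfix, the homeodomain genes Lhx2 and Emx2, the Id genes Id3 and Id4, and the zinc-finger gene Zbtb20. They were taken by symbol from the count table, where they are 10 of 52550 genes, each with 1 row. None of the 10 passed the test for a difference between the genotypes. Zbtb20 was lower in every knockout library than in every wild-type library and Nfix was higher in every one, both without passing the adjusted threshold. Of all genes tested, 3.25% were lower and 2.95% higher in this way. Relative to the astrocyte markers of the same library, the groups overlapped for both genes. Sox9, widely used as a nuclear astrocyte marker, was the steadiest of the 10 over the libraries. This held for levels scaled between libraries and not for levels relative to the astrocyte markers.

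The samples came from somatosensory cortex at postnatal day 40. The knockout group was Fmr1−/y, the wild-type group Fmr1+/y, and both carried the Aldh1l1-TRAP transgene on an FVB/C57 background. In translating ribosome affinity purification (TRAP), ribosomes tagged with eGFP are pulled down with an antibody, and here the astrocyte promoter Aldh1l1 drives the tag, so that RNA on astrocyte ribosomes is enriched. Fmr1 encodes FMRP, an RNA-binding protein that regulates translation. There were 3 knockout libraries, numbered 14, 16 and 18 in the titles, and 3 wild-type libraries, numbered 13, 15 and 17. The sources used here do not say whether each came from its own animal, so that the spread between libraries may be partly technical.

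In development of the central nervous system the SOX and NFI factors act in sequence. Sox2 keeps neural progenitors undifferentiated and Sox9 opens the switch from making neurons to making glia. Sox9 induces NFIA, with which it then drives astrocyte genes. Id proteins hold back bHLH factors that promote neuronal fates, and bone morphogenetic proteins induce them through Smad proteins. Lhx2, Emx2 and Zbtb20 are patterning genes of the dorsal forebrain, and Lhx2 and Zbtb20 have also been linked to the timing of gliogenesis. Many of these genes stay active in adult astrocytes, and several are also expressed by neurons or other glia.

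The bases before the start sites were searched for letter patterns of SOX and NFI factors and are shown for 4 members. Windows of 250 bases before an annotated start (RefSeq, GRCm38.p6, the assembly also called mm10) were given for 8 members, with 12 windows in all. Short letter patterns were searched on both strands: ACAAAG, a core recognised by SOX factors, and TTGGC, the half-site of NFI factors. The SOX core occurred before Sox2 and Nfix, in 2 of the 12 windows and in 16.5% of all 32851 windows. The NFI half-site occurred before Id3, Id4, Lhx2, Nfix and Sox2, in 6 of the 12 windows and in 41.5% of all windows. The full NFI palindrome, the half-site followed by 5 bases of any kind and its reverse complement, was in 0 of the 12 windows and in 0.037% of all windows. Matches to such short patterns are descriptions of the letters and not binding sites. Sox2 and the Id genes are printed for their matches, which stand in capitals, and Zbtb20 because it differed most between the genotypes. All 4 lie on the plus strand, at chr3:34649745-34649994 for Sox2, chr4:136143572-136143821 for Id3, chr13:48260866-48261115 for Id4 and chr16:43247034-43247283 for Zbtb20, where the start is 1 within a long gene.
Sox2: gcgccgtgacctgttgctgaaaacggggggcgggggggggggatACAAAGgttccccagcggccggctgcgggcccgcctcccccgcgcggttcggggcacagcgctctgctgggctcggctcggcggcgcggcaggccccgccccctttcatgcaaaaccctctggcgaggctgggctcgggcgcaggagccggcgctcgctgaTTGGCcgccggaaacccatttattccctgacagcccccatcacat
Id3: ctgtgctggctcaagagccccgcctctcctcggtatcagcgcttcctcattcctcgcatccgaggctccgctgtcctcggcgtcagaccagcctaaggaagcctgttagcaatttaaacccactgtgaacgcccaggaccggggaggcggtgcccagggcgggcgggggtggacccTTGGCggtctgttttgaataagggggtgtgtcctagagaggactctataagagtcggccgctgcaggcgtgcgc
Id4: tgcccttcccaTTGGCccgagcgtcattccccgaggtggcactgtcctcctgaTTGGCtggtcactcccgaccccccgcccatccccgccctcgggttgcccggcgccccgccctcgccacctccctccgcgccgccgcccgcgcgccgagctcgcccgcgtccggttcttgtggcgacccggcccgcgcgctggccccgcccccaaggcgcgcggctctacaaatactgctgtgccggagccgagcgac
Zbtb20: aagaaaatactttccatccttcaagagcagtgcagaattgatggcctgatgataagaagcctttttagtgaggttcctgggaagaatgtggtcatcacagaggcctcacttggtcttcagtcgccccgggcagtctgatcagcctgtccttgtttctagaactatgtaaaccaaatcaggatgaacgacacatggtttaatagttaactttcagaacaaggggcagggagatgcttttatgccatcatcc

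The Sox2 window held the SOX core from 206 to 201 bases and the NFI half-site from 45 to 41 bases before the start. In Id4 the half-site stood at 239 to 235 and at 197 to 193 bases, and in Id3 at 74 to 70 bases. The Zbtb20 window held neither pattern. G and C made up 72% of the Sox2, 62.8% of the Id3 and 75.6% of the Id4 window, against 44.8% of the Zbtb20 window and a median of 52.4% over all windows.

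Total counts ran from 10953958 to 22397202 per library. The features CT010467.1, Lars2 and AY036118, on which ribosomal RNA reads collect, took up 35.6% of library 14 and 45.1% of library 16, both knockout, against 0.892% to 7.45% in the other 4. Fmr1 itself measured 4.32, 4.22 and 1.32 CPM in the libraries labelled knockout and 31.6, 38.4 and 37.0 CPM in the wild-type libraries (log2 fold change -3.53, SE 0.41), and with an edgeR quasi-likelihood adjusted p of 0.300 it did not pass the threshold either. CPM, the unit of all levels below, are gene counts relative to the library size after TMM scaling, before which the 2 entries of a library were summed. All 20 astrocyte markers were measured, with summed levels from 33438 to 42145 CPM in the knockout and from 33334 to 43158 CPM in the wild type, and none of the listed markers of any cell type was at 0 in all libraries. The 18 neuron markers summed to 2147 to 3000 CPM in the knockout and 1571 to 2882 CPM in the wild type, the 12 oligodendrocyte markers to 658 to 1511 and 724 to 1282 CPM, and the 13 microglia markers to 60.9 to 71.0 and 68.7 to 86.2 CPM. In such bulk RNA, fewer astrocytes and less RNA per astrocyte cannot be told apart.

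All 10 members passed the filter on low counts. Their summed counts per library ran from 113 for Emx2 in library 16 to 10635 for Id3 in library 13. For Emx2 counting alone gave an error of 9.41% at that lowest count, and for the other members at most 4.74%. Over the 10 members the edgeR quasi-likelihood test called 0 at an adjusted p under 0.05, as it did over all 14990 genes tested (0% called). At an unadjusted p under 0.05 it had 1 of the 10, Zbtb20, against 1.77% of all genes in either direction and 1.03% on the lower side. DESeq2, which called 0.0534% of all genes, called 0 members too. The median log2 fold change, knockout over wild type, was -0.052 over the members and -0.0019 over all genes, with 6 members lower and 4 higher.

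**Figure D1:**
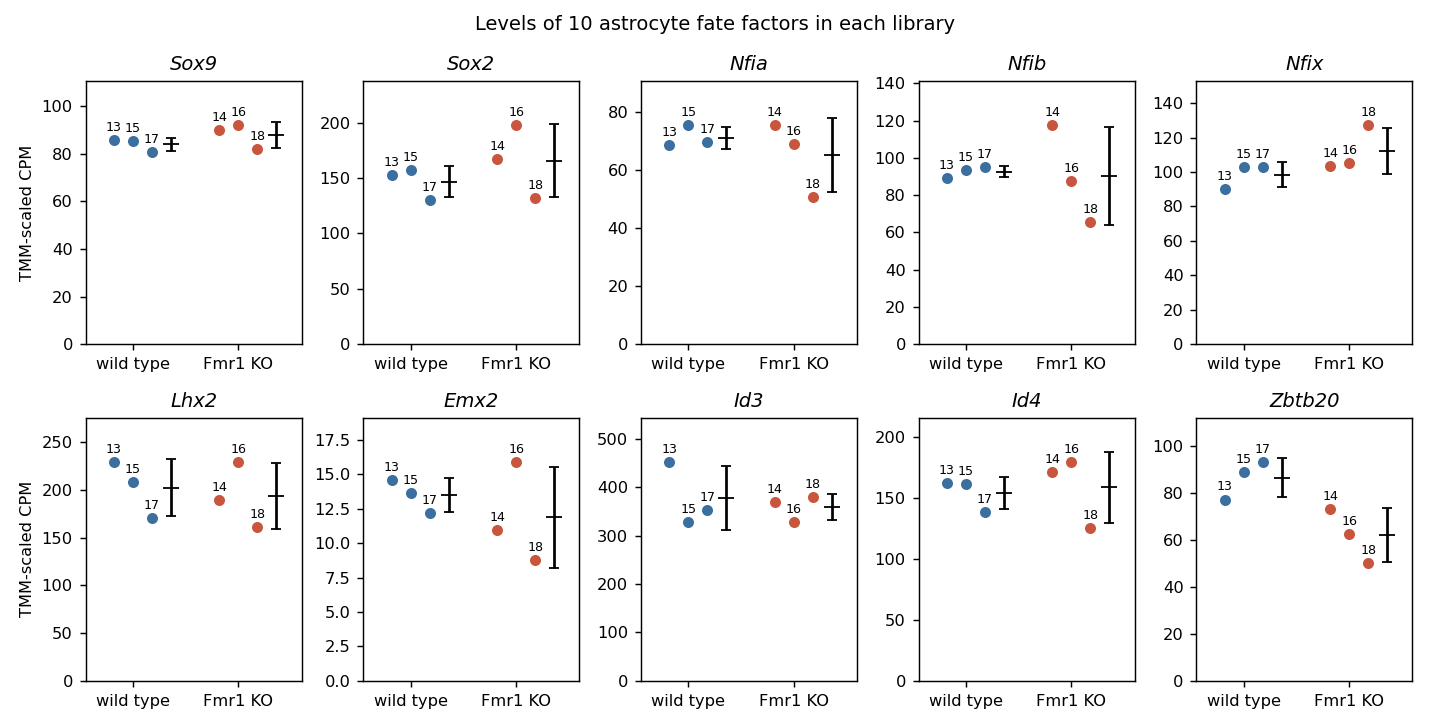
TMM-scaled CPM (vertical axes, from 0) of each of the 10 genes in the 3 wild-type (blue) and 3 Fmr1 knockout (red) libraries. Points carry the library number, and black bars give the mean ± SD of each group. Zbtb20 is the 1 gene with all red points below all blue points and Nfix the 1 with all above. Library 18 is the lowest knockout point in 8 of the 10 panels.

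Sox9, the HMG-box factor that specifies astrocytes, stood at 90.0, 92.1 and 81.8 CPM in the knockout (libraries 14, 16 and 18) and at 85.9, 85.2 and 80.6 CPM in the wild type (13, 15 and 17). The groups overlapped, and the highest library was 1.14-fold above the lowest, the narrowest range of the 10 members in TMM-scaled CPM. Relative to the median of the astrocyte markers in the same library, Sox9 ran from -0.28 in library 13 to 0.36 in library 17 (log2 units from the wild-type mean). That range was wider than the -0.21 to 0.18 of Lhx2. Mean levels were 87.9 ± 5.44 and 83.9 ± 2.89 CPM (SD, n = 3 each), with a log2 fold change of 0.067 (SE 0.12, 95% interval -0.22 to 0.35). The interval of the fold, 0.859 to 1.28, gives the size of change in Sox9 that these libraries allow. Sox9 lies on chromosome 11 from 112782210 to 112787757 (GRCm38.p6), and no other RefSeq gene overlaps it.

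Sox2, which maintains neural progenitors and persists in adult astrocytes, was more uneven. It stood at 167, 198 and 132 CPM in the knockout (libraries 14, 16 and 18) and at 153, 157 and 130 CPM in the wild type (13, 15 and 17). Libraries 14 and 16 were the highest and libraries 17 and 18 the lowest, so that each genotype had a low library. The log2 fold change was 0.17 (SE 0.18, 95% interval -0.23 to 0.58), with means of 166 ± 32.8 and 147 ± 14.3 CPM (SD, n = 3 each). Libraries 14 and 16 hold the large ribosomal RNA share, and with it as a covariate the log2 fold change of Sox2 turned to -0.14. Without libraries 14 and 16 it was -0.12, and with the features that collect ribosomal RNA left out of the table it stayed at 0.17.

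Sox2 lies within the long noncoding gene Sox2ot (chromosome 3, 34560381 to 34677993, around Sox2 at 34649995 to 34652461, GRCm38.p6). Sox2ot stood at 6.85, 9.01 and 8.20 CPM in the knockout (libraries 14, 16 and 18) and at 14.4, 8.26 and 19.8 CPM in the wild type (13, 15 and 17). Its log2 fold change was -0.82 (SE 0.31), opposite in sign to that of Sox2, and its groups overlapped through wild-type library 15 (edgeR quasi-likelihood adjusted p = 1.00). No source used here gives the strand setting of the counting, so that reads of overlapping genes may not be told apart. In RefSeq 7 of the 10 members are overlapped by at least 1 other gene. Besides Sox2ot, the overlapping genes that passed the filter were E130114P18Rik at Nfia, with a log2 fold change of -0.016, and A330033J07Rik at Id4, with -0.28 (SE 0.44).

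The NFI genes encode DNA-binding proteins that bind the same palindrome, and NFIA and NFIB start gliogenesis in the embryonic cortex and spinal cord. Nfia stood at 75.7, 69.1 and 50.9 CPM in the knockout (libraries 14, 16 and 18) and at 68.6, 75.7 and 69.7 CPM in the wild type (13, 15 and 17). Nfib stood at 118, 87.7 and 65.4 CPM in the knockout (libraries 14, 16 and 18) and at 89.4, 93.5 and 94.9 CPM in the wild type (13, 15 and 17). In both genes knockout library 18 was the lowest of the 6 and library 14 the highest, by under 0.1 CPM in Nfia, while the wild-type libraries lay close together.

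Nfib had the most unequal spread of the 10 members, with an SD of log2 CPM of 0.42 in the knockout and 0.044 in the wild type. Mean levels of Nfib were 90.3 ± 26.3 and 92.6 ± 2.84 CPM (SD, n = 3 each; log2 fold change -0.038, SE 0.21), and those of Nfia 65.2 ± 12.8 and 71.3 ± 3.81 CPM (log2 fold change -0.13, SE 0.17). Without knockout library 18 both turned to the higher side, at 0.15 for Nfib and 0.023 for Nfia. With the ribosomal RNA share as covariate they went further down, to -0.39 for Nfib and to -0.43 for Nfia, with an unadjusted edgeR quasi-likelihood p of 0.0360 for Nfia. In that fit 3 of the 10 members, Nfia, Emx2 and Zbtb20, were at an unadjusted p under 0.05, against 5.56% of all genes, and 0 passed after adjustment. Because knockout libraries 14 and 16 hold the large share, the genotype difference in that fit leaned mostly on knockout library 18. Leaving out 14 and 16 gave similar sizes, -0.46 for Nfia, -0.60 for Emx2 and -0.76 for Zbtb20.

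Nfix, which acts later in glial maturation, stood apart from its 2 relatives. It stood at 104, 105 and 127 CPM in the knockout (libraries 14, 16 and 18) and at 90.2, 102.7 and 102.8 CPM in the wild type (13, 15 and 17). All 3 knockout libraries were above all 3 wild-type libraries, by a margin of under 1 CPM between libraries 14 and 17. The same held for 2.95% of all genes tested. Mean levels were 112 ± 13.3 and 98.5 ± 7.23 CPM (SD, n = 3 each), a 1.14-fold higher level in the knockout (log2 fold change 0.19, SE 0.14, 95% interval -0.14 to 0.52; edgeR quasi-likelihood adjusted p = 1.00). The exact two-sided permutation p was 0.1, below which a design of 3 against 3 cannot go. The log2 difference was 0.21 among libraries with month 5 in their titles (2 knockout, 1 wild type) and 0.31 among those with month 6 (1 knockout, 2 wild type). Without knockout library 18 the log2 fold change of Nfix was 0.084.

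Knockout library 18 therefore held the lowest Nfia and Nfib and the highest Nfix. The share of each gene in the NFI counts of its own library does not depend on scaling between libraries, and it was computed after the levels had been seen, with Nfic, the fourth NFI gene, included. Nfix made up 44.6% of the NFI counts in library 18 (Wilson 95% interval 43.4% to 45.7%), against 30.1% to 34.4% in the other 5 libraries. Nfib made up 22.9% in library 18 (21.9% to 23.8%) against 28.6% to 34.3%, and Nfia 17.8% (16.95% to 18.7%) against 22.05% to 24.4%. The 3 shares of library 18 lay outside the range of all other libraries. Those of knockout libraries 14 and 16 were closer to the wild type but also left its range. Nfix took 30.1% in library 14 and 34.4% in library 16, against 31.3% to 33.8% in the wild type. Nfib took 34.3% and 28.6% against 30.1% to 31.2%, and Nfia 22.05% and 22.6% against 22.9% to 24.4%. The Wilson intervals cover counting error only, and reads from PCR copies are not independent molecules.

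**Figure D2:**
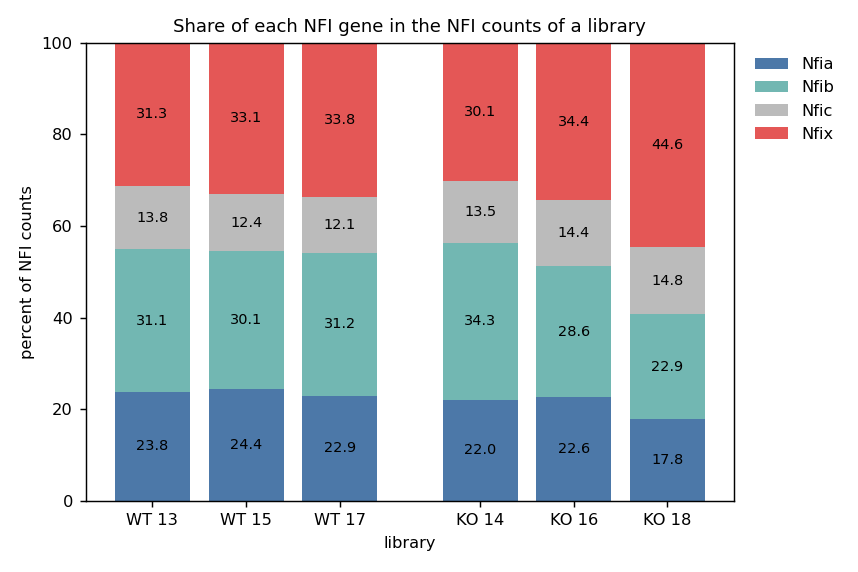
Stacked bars give the percent of the summed Nfia, Nfib, Nfic and Nfix counts that each gene took in each wild-type (WT) and knockout (KO) library. The Nfix part is 44.6% in KO 18 and between 30.1% and 34.4% in the other 5 bars. Shares of different genes also depend on their transcript lengths and are compared only across libraries.

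Lhx2, a LIM-homeodomain selector of the cortex that holds back gliogenesis in progenitors, varied as widely within a genotype as between them. It stood at 189, 230 and 162 CPM in the knockout (libraries 14, 16 and 18) and at 229, 208 and 170 CPM in the wild type (13, 15 and 17). The groups overlapped over nearly their whole range. Mean levels were 193 ± 34.2 and 202 ± 29.7 CPM (SD, n = 3 each; log2 fold change -0.066, SE 0.18, 95% interval -0.48 to 0.35). The direction turned without wild-type library 13, to 0.031, and without knockout library 18, to 0.048, while with the ribosomal RNA share as covariate Lhx2 was at -0.32.

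Emx2, an arealization gene of the dorsal telencephalon, had the lowest counts of the members. It stood at 10.9, 15.9 and 8.74 CPM in the knockout (libraries 14, 16 and 18) and at 14.6, 13.6 and 12.2 CPM in the wild type (13, 15 and 17). Knockout library 16 was the highest and knockout library 18 the lowest of the 6, so that the wild-type values lay inside the knockout range. The log2 fold change was -0.20 (SE 0.24, 95% interval -0.75 to 0.35), with means of 11.9 ± 3.67 and 13.5 ± 1.21 CPM (SD, n = 3 each). Without knockout library 18 the log2 fold change of Emx2 was -0.015, and with the ribosomal RNA share as covariate it was -0.62, with an unadjusted edgeR quasi-likelihood p of 0.0452. The noncoding gene Emx2os ends at position 59458635 of chromosome 19, just before the Emx2 start at 59458690 (GRCm38.p6). Emx2os stood at 1.22, 4.93 and 1.62 CPM in the knockout (libraries 14, 16 and 18) and at 0.511, 1.18 and 7.27 CPM in the wild type (13, 15 and 17), with no separation of the groups.

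Id3 and Id4 encode inhibitors of DNA binding, which dimerise with bHLH factors and cannot bind DNA themselves. Id3 stood at 369, 329 and 379 CPM in the knockout (libraries 14, 16 and 18) and at 453, 328 and 352 CPM in the wild type (13, 15 and 17). Wild-type library 13 was well above the other 5 libraries, which lay between 328 and 379 CPM. Mean levels were 359 ± 26.5 and 378 ± 66.2 CPM (SD, n = 3 each; log2 fold change -0.072, SE 0.16), and without library 13 the log2 fold change was 0.079. Id3 was the 1 member with a larger spread in the wild type than in the knockout.

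Id4 stood at 171, 180 and 126 CPM in the knockout (libraries 14, 16 and 18) and at 162, 161 and 139 CPM in the wild type (13, 15 and 17). As in Sox2, libraries 17 and 18 were the 2 lowest and libraries 14 and 16 the 2 highest. Mean levels were 159 ± 29.1 and 154 ± 13.3 CPM (SD, n = 3 each; log2 fold change 0.045, SE 0.17, 95% interval -0.35 to 0.44). The direction of Id4 was not stable: it reversed in 7 of 16 alternative analyses.

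Zbtb20, a zinc-finger repressor of the BTB family known from hippocampal development and astrocyte formation, had the largest fold change of the 10. It stood at 73.0, 62.7 and 50.2 CPM in the knockout (libraries 14, 16 and 18) and at 77.2, 88.8 and 93.3 CPM in the wild type (13, 15 and 17). Each knockout library was below each wild-type library, with 4.16 CPM between knockout library 14 and wild-type library 13. All 3 knockout libraries lay below all 3 wild-type libraries in 3.25% of all genes tested. Mean levels were 61.9 ± 11.4 and 86.4 ± 8.33 CPM (SD, n = 3 each), so that Zbtb20 was 1.40-fold lower without Fmr1. The log2 fold change was -0.48 (SE 0.17, 95% interval -0.87 to -0.092).

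The edgeR quasi-likelihood test gave Zbtb20 an unadjusted p of 0.0213 and an adjusted p of 1.00, and its exact two-sided permutation p was 0.1, the smallest possible. In the authors' deposited table Zbtb20 had a log2 fold change of -0.49 and an adjusted p of 0.0516. That table has 12 columns, the 2 entries of each library apart, and no source used here says whether its test took them as separate samples. If it did, its p-values are smaller than 3 libraries against 3 would give, and they cannot be set beside those computed here. In the authors' deposited table it ranked 86 by p among 14843 features, next after the 85 with an adjusted p under 0.05, and the other 9 members had an adjusted p of at least 0.916. Zbtb20 stayed on the lower side in all 16 alternatives run here, from -0.76 to -0.35, with an adjusted p between 0.860 and 1.00. It was at -0.72 when that ribosomal RNA share entered as a covariate and at -0.76 without knockout libraries 14 and 16, and the smallest size, -0.35, came without knockout library 18. Its unadjusted p went above 0.05 without knockout library 18 (0.0557), without wild-type library 15 (0.0660) and without wild-type library 17 (0.0617).

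The Zbtb20 difference was larger among libraries with month 6 in their titles, at -0.86 on the log2 scale for knockout library 18 against wild-type libraries 15 and 17, than among those with month 5, at -0.19 for libraries 14 and 16 against library 13. The separation of Zbtb20 also rested on the scaling. Relative to the median of the astrocyte markers in the same library, Zbtb20 was at -0.37, -0.79 and -0.45 in knockout libraries 14, 16 and 18 and at -0.47, -0.064 and 0.53 in wild-type libraries 13, 15 and 17, so that the groups then overlapped (log2 units from the wild-type mean). With library sizes set by those markers the log2 fold change of Zbtb20 was -0.57 with an unadjusted p of 0.110. The separation of Nfix was lost in the same way, since wild-type library 17 stood at 0.48 and knockout libraries 14 and 16 at -0.053 and -0.23. By this measure 0 of the 10 members had groups without overlap, as against 2.71% of all genes tested that had.

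**Figure D3:**
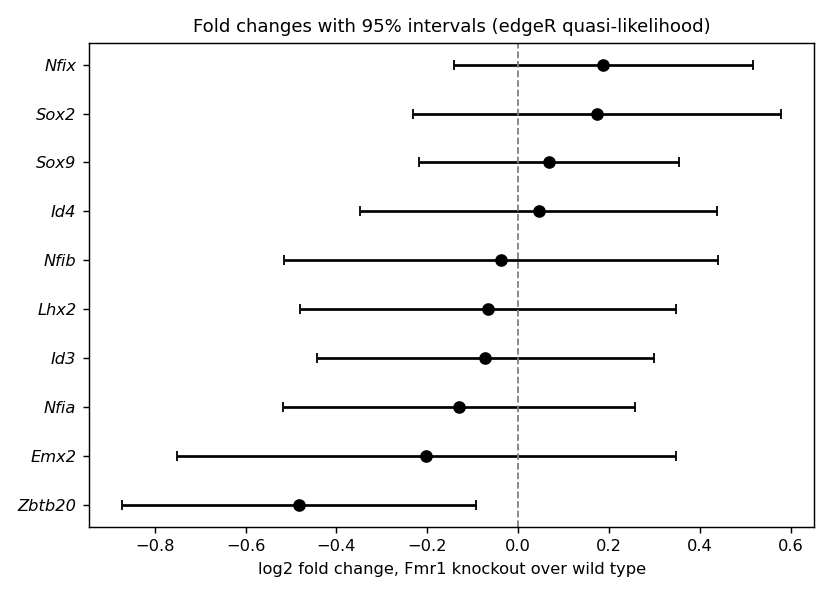
Log2 fold changes, knockout over wild type (horizontal axis), of the 10 genes with 95% intervals from the edgeR quasi-likelihood fit. The interval of Zbtb20, from -0.87 to -0.092, is the 1 that does not reach 0, before any adjustment for the 14990 genes tested.

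Within the groups, the members were more variable in the knockout. The SD of log2 CPM was larger in the knockout for 9 of the 10, with a median of 0.28 against 0.13 in the wild type. Over the 9349 genes with a mean of at least 10 CPM it was larger in the knockout for 51.3%, with medians of 0.20 and 0.19. Much of this was seen in library 18, where the median deviation of the members from their wild-type mean was -0.30 on the log2 scale, against 0.080 in library 14 and 0.12 in library 16. In the wild-type libraries 13, 15 and 17 it was 0.050, 0.047 and -0.072.

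Marker genes moved with these deviations in part. The astrocyte marker median was at -0.33 in knockout library 18, near the members' -0.30, but at -0.42 in wild-type library 17, where the members were at -0.072. The neuron marker median was highest in libraries 18 (0.54) and 17 (0.40) and lowest in library 13 (-0.59). That of the oligodendrocyte markers was 0.66, 0.50 and -0.57 in the same libraries, and lowest in knockout library 16 (-0.70). The median of the microglia markers was lower in each knockout library than in each wild-type library. Values were -0.19 in library 14, -0.30 in 16 and -0.32 in 18, against 0.016 in 13, -0.019 in 15 and -0.016 in 17. Their summed level did not separate, since knockout library 14 (71.0 CPM) lay above wild-type library 17 (68.7 CPM). Taken singly, 3 of the 13 markers were lower in every knockout library than in every wild-type library, as were 3.25% of all genes tested. Of these 13 markers 12 were lower in the knockout, and of all 14990 genes tested 7550 were. The markers had a median level of 3.10 CPM, a median log2 fold change of -0.26 and 0 called. The part of other cell types in the members' values was not tested.

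**Figure D4:**
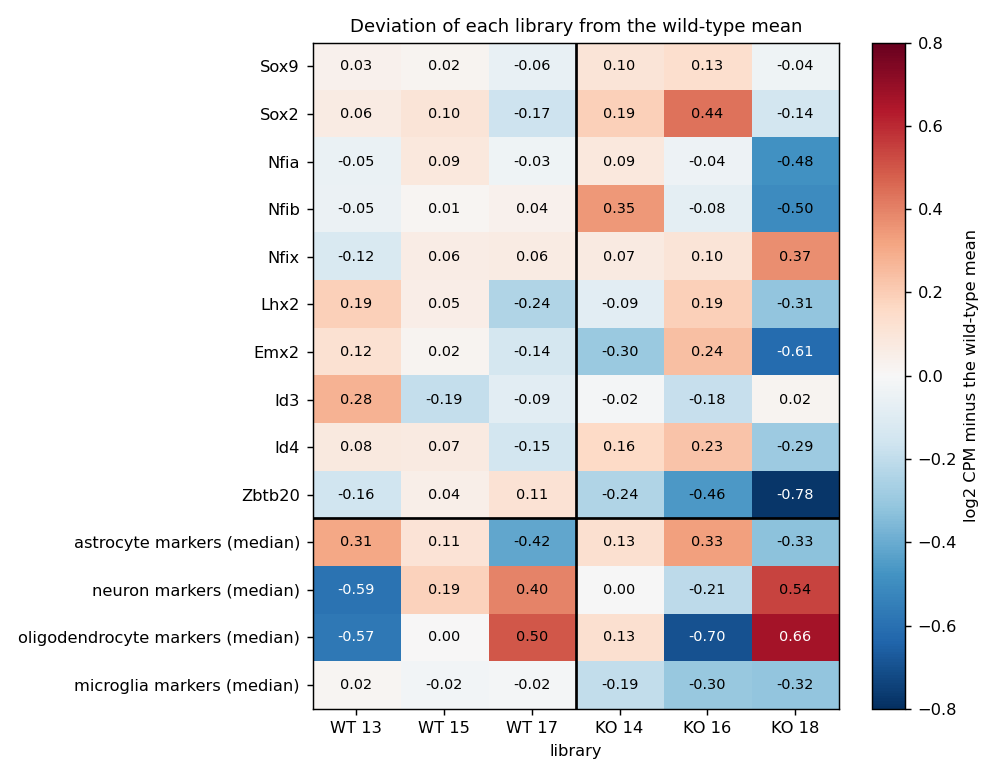
Each cell gives log2 CPM minus the mean of the 3 wild-type libraries, for the 10 genes and, below the line, for the medians of 4 cell type marker lists. Columns are the wild-type (WT) and knockout (KO) libraries, blue is below and red above the wild-type mean. The KO 18 column is below 0 for 8 of the 10 genes, down to -0.78 for Zbtb20, and at 0.37 for Nfix.

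Relatives of the members in the same protein families did not pass either. Of 21 listed, 18 were tested, 9 were higher and 9 lower, and the median log2 fold change was 0.028. Those with the smallest p were Sox1, Id1 and Nfic. Sox1, a progenitor factor close to Sox2, measured 51.4 ± 12.6 CPM without Fmr1 and 38.1 ± 2.15 CPM with it (SD, n = 3 each; log2 fold change 0.43, SE 0.18), with all knockout libraries above all wild-type libraries. The margin was narrow, with knockout library 18 at 40.4 CPM and wild-type library 13 at 39.7 CPM, while knockout library 16 was at 65.2 CPM. All knockout libraries were above in 2 of the 18 relatives and in 2.95% of all genes tested. Id1 measured 62.3 ± 7.57 against 50.0 ± 7.13 CPM, and Nfic, also without overlap, 44.2 ± 2.09 against 38.4 ± 1.45 CPM. Sox1 was the 1 relative with an unadjusted p under 0.05.

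Signals that act upstream of these factors were near 0 as lists. The 17 genes of the bone morphogenetic protein and Smad pathway had a median of -0.075 (log2 fold change), with 8 higher, 9 lower and 0 called. This list pools genes that carry the signal, which induces Id genes, with the inhibitors Nog, Chrd, Smad6 and Smad7. The inhibitors were at 0.019, 0.36, 0.29 and 0.44, so that all 9 lower genes were among the others. Of those others, Bmp2, Bmp4, Bmp7 and Acvr2a were higher. Smad7, an inhibitory Smad, measured 9.86 ± 1.39 against 7.31 ± 1.09 CPM (SD, n = 3 each), the ligand gene Bmp6 7.70 ± 1.76 against 11.2 ± 4.95 CPM, and Bmp2 0.887 ± 0.347 against 0.470 ± 0.359 CPM. In the LIF and STAT3 signal, which promotes astrocyte genes in progenitors, 11 of 12 genes were tested, with a median of -0.046, 4 higher and 7 lower. Jak2, a kinase of that pathway, measured 28.3, 32.7 and 26.8 CPM in the knockout libraries and 38.2, 36.6 and 38.6 CPM in the wild-type libraries, without overlap (log2 fold change -0.37, SE 0.13). Jak2 was the 1 gene of these 11 that was lower in every knockout library, against 3.25% of all genes tested. In the list of 17 genes, Smad7 was the 1 without overlap, being higher in every knockout library, as were 2.95% of all genes. Lifr, the receptor gene, measured 32.1 ± 3.99 against 37.6 ± 5.14 CPM, and Cntf 2.93 ± 1.85 against 4.16 ± 0.605 CPM. The edgeR quasi-likelihood adjusted p was 1.00 for each of these genes.

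Among bHLH genes, whose products pair with or are restrained by Id proteins, 10 of 11 were tested, with 6 higher, 4 lower and a median of 0.12 (log2 fold change). Olig2 measured 34.5 ± 5.01 against 27.2 ± 3.38 CPM, Olig1 161 ± 18.9 against 131 ± 17.1 CPM, and the Notch target Hes5 87.9 ± 10.5 against 72.9 ± 18.3 CPM (SD, n = 3 each), each with overlap between the groups. The 26 other transcription factors known from astrocytes had a median of -0.0042, with 13 higher and 13 lower. Their smallest p values belonged to Zfhx4 (2.87 ± 0.614 against 1.69 ± 0.803 CPM), Tcf7l1 (4.15 ± 0.652 against 3.16 ± 0.380 CPM) and Rorb (137 ± 38.9 against 165 ± 20.6 CPM). Zfhx4 and Tcf7l1 were the 2 of the 26 that were higher in every knockout library, against 2.95% of all genes tested.

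Genes reported to be driven by Sox9, NFI factors or both were measured in full, 16 of 16, and many of them are also astrocyte markers. Their median log2 fold change was 0.044, with 8 higher, 8 lower and 0 at an unadjusted p under 0.05. Fabp7, a fatty acid-binding protein of radial glia, measured 605 ± 139 against 477 ± 74.9 CPM, Apcdd1 14.4 ± 3.86 against 11.9 ± 4.92 CPM, and S100b 1333 ± 241 against 1181 ± 362 CPM (SD, n = 3 each). Sharing many genes with the astrocyte markers, the target list moved with them, with medians of -0.33 in library 18 and -0.41 in library 17. Sox9 deviated by at most 0.13 in any library.

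Factors of the other neural fates were tested for comparison. Of 14 neuronal lineage factors 13 were tested, with a median log2 fold change of -0.012, and of these Cux1 had the smallest p, at 59.1 ± 6.06 against 77.2 ± 7.68 CPM without overlap (SD, n = 3 each; log2 fold change -0.39, SE 0.14; edgeR quasi-likelihood adjusted p = 1.00). Cux1 was the 1 of the 13 that was lower in every knockout library, against 3.25% of all genes tested. Dlx1 measured 6.143 ± 0.291 against 7.97 ± 2.31 CPM and Tbr1 26.1 ± 7.70 against 20.5 ± 7.17 CPM. The 8 oligodendrocyte lineage factors, which share Olig1 and Olig2 with the bHLH list, had a median of 0.10, with Nkx2-2 at 7.61 ± 3.06 against 6.49 ± 2.04 CPM. The list of noncoding genes at the members held Sox2ot, Emx2os and a pair of others that overlap no member in RefSeq, with all 4 lower and a median of -0.42. Of that pair, BC006965 measured 2.68 ± 0.650 against 3.88 ± 0.758 CPM and 2610035D17Rik 14.3 ± 3.06 against 15.8 ± 3.21 CPM.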

How the data were processed

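Per the file headers and the labels, the authors deposited RSEM expected counts per gene for 12 entries, 2 for each of 6 libraries. The submitters' processing notes name mm10, STAR 2.5.3a, RSEM 1.3.0 and edgeR; no source used here gives the annotation release or the strand setting. A comparison table that the authors deposited gives log2 fold changes, p-values and a scaled signal per entry; the signal was not used. Entries of a library differed by 1.17 to 2.34 times the sampling noise (chi-square per degree of freedom; at least 17.8 between libraries of a group), with a median chi-square per gene of 0.467 to 0.494 (at least 2.93 between libraries), and were summed, rounded and counted as 1 sample. Of the members' 120 expected counts 114 were whole within 0.001.

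Genes were filtered with filterByExpr, scaled by TMM and tested with edgeR's quasi-likelihood test (edgeR 4.0.16, limma 3.58.1, DESeq2 1.42.0, R 4.3.3), with Benjamini-Hochberg adjustment over 14990 genes at a threshold of 0.05 and 8.24 total degrees of freedom. The SE was taken from the F statistic. Log2 CPM used a prior count of 2. The script was tested on simulated data. Members and lists were chosen with earlier results of these data known. Every member is named; of each other functional list the 3 genes with the smallest p are named, and genes that overlap or neighbour a member. No reference genome was used; coordinates and start windows are from RefSeq tables.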

Additional observations from a re-analysis of the deposited data

How the results depend on the processing

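There were 16 alternatives. Of the 160 values of single members, 142 kept their direction, 18 reversed and 0 passed an adjusted p under 0.05. Over all genes the count called was 0 in the quasi-likelihood test, with 265 genes below 0.05 before adjustment, 8 with DESeq2, 9 with edgeR's exact test, 6 without a filter on low counts, 1 when the ribosomal RNA share was a covariate, and 0 to 2 when 1 library was left out; 0 members were called in each. The members' median log2 fold change was -0.14 with the title month as a covariate, -0.29 with that share, -0.28 without knockout libraries 14 and 16, which leaves 1 knockout library assumed to vary like the others, and -0.073 to 0.066 when 1 library was left out (0.066 without knockout library 18, 0.055 without wild-type library 13). Id4 reversed to -0.070 with month, -0.26 with the ribosomal RNA share, -0.012 scaled on the astrocyte markers and -0.27 without libraries 14 and 16. With the ribosomal RNA share and without libraries 14 and 16, respectively, Sox9 reversed to -0.027 and -0.012, Sox2 to -0.14 and -0.12, and Id3 to 0.041 and 0.030. Leaving out 1 library gave -0.053 to 0.19 for Id4, -0.25 to 0.023 for Nfia, -0.28 to 0.15 for Nfib, -0.21 to 0.048 for Lhx2 and -0.15 to 0.079 for Id3. The cause was not tested. Title month and genotype overlap in part, and 3 libraries a group limit every interval. No paired analysis was made because the labels state no pairing of libraries.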
